A study of Gallus gallus with 24 samples.

Results

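The cytosolic ribosomal proteins are the protein part of the ribosomes that translate nuclear mRNAs. The genes described here were selected on their symbol, chromosome and level: rows off the sex chromosomes Z and W whose symbol is RPL or RPS with a number and at most 1 letter, or a stalk protein symbol, and whose FPKM, averaged over the 24 birds, was 1 or more. FPKM is a level scaled to the length of the gene model and to sequencing depth. The rule kept 61 of the 25339 entries of the gene table, 38 of the large subunit (RPL) and 23 of the small subunit (RPS). In all, 67 entries fitted the symbols. Of the others, 4 lie on Z (RPL37, RPL17, RPS23 and RPS6) and 2 were under the limit, namely RPS26 at a mean FPKM of 0.0664 and RPL3L at 0.102. The member closest to the limit from above was RPS21 at 50.6, so no member lay near it. The mean FPKM was the only measured value that the rule used, and the groups played no part in it.

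Samples were ileum of Arbor Acres broilers aged 14 d, 6 birds in each of 4 groups. CTL birds ate the basal diet and received 0.5 mL of PBS on d 5. SP birds ate that diet and received 0.5 mL of Salmonella pullorum (strain C79-3) on d 5. SPH and SPM birds received the same challenge on the basal diet with 300 mg/kg of honokiol (SPH) or magnolol (SPM), which are isomers, and all 4 groups share the breed, the basal diet, the tissue and the age. The CTL cages were kept apart from those of the challenged birds, so place of rearing and challenge cannot be told apart. The labels name the tissue as ileum, while a protocol line speaks of retinas. Genes used here as markers of enterocytes, cells of the gut epithelium, were abundant in these libraries. APOA1 had a mean FPKM of 5146, FABP1 3943, FABP6 2897 and FABP2 2208. Transcripts of the female W chromosome were present in 6 CTL, 3 SP, 3 SPH and 4 SPM birds, and the totals of reads on genes ran from 14393822 to 19435410 per bird.

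A cytosolic ribosome is built from ribosomal RNA and a fixed set of proteins, each present about once except for the acidic stalk proteins. The proteins are made in matched amounts. In vertebrates their mRNAs begin with a 5' terminal oligopyrimidine (TOP) tract, by which mTOR signalling and LARP1 set how actively they are translated. An mRNA level is therefore one layer of their control, and the translation of these mRNAs was not measured here. In the intestine, demand for ribosomes is high in the dividing crypt cells and in stimulated lymphocytes.

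Of 79 symbols written down for the ribosomal proteins of vertebrates, 67 matched an entry and 60 of these were members. The other member is RPS27L, a paralog of RPS27 that p53 switches on in human cells. The 12 symbols with no match, among them RPSA, RPS9, RPS18, RPL10 and RPL13A, were not analysed here.

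As a family these mRNAs were among the most abundant in the ileum. The 61 members took 2.54% to 4.02% of all reads on genes and 5.03% to 7.67% of the summed FPKM of a bird. By mean FPKM 21 members were within the top 100 entries of the table, 57 within the top 500 and 59 within the top 1000. The median member had a mean FPKM of 517. Every member had at least 1093 reads in every bird, so counting error was small for all of them.

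The highest member was RPLP1, a protein of the stalk that recruits elongation factors to the ribosome, with a mean FPKM of 1474 and rank 29 (chr2:145698580-145699798, GRCg6a, the chicken build in the submitters' processing notes). RPL27A at 1092, RPL34 at 1051 and RPL23A at 872 were also among the highest. RPL23A lies at the exit of the peptide tunnel, where the signal recognition particle docks. The other stalk proteins were lower, with 677 for RPLP0, the stalk base that holds the P1 and P2 dimers, and 264 for RPLP2. The 5 lowest members were RPS21 at 50.6, RPL26 at 62.2, RPL37A at 90.5, RPS24 at 127 and RPL35 at 149. The highest mean FPKM was 29.1 times the lowest.

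**Figure D1:**
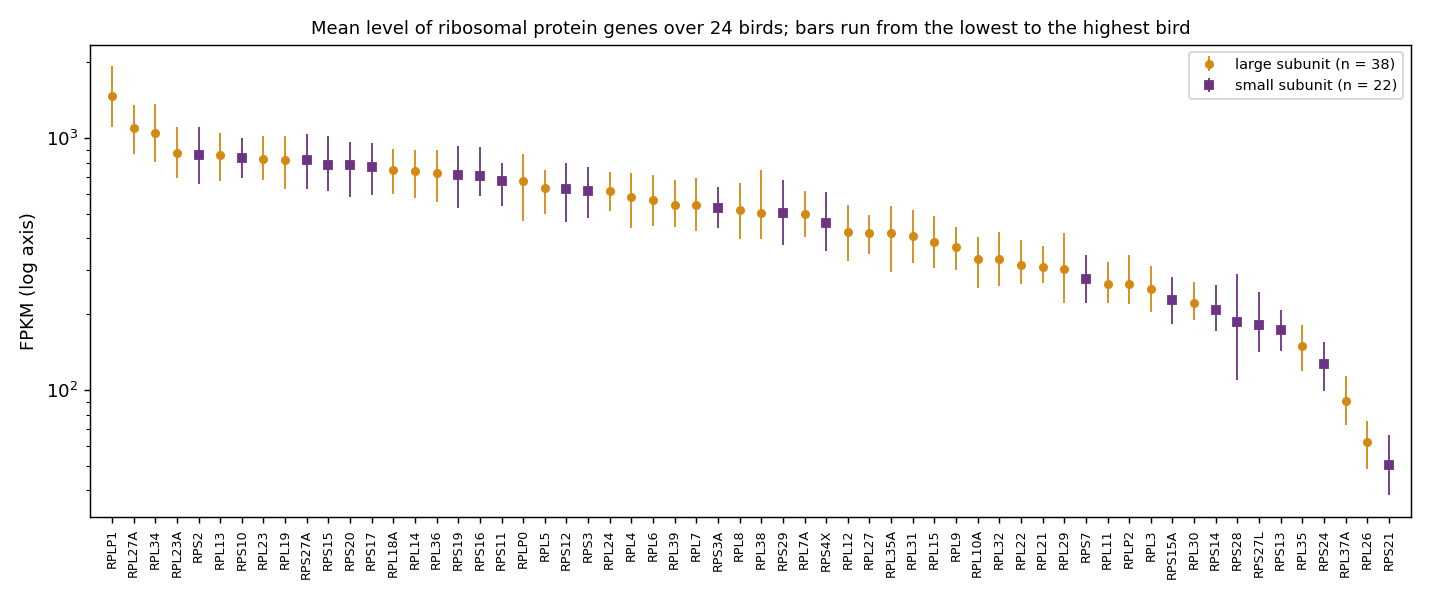
Mean FPKM of 60 of the 61 members (log axis) ordered from RPLP1 at 1474 to RPS21 at 50.6, with circles for the large and squares for the small subunit. Bars run from the lowest to the highest of 24 birds, and they are short beside the 29.1-fold span between genes.

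Levels per length followed the length of the authors' gene models. Across the 61 members the Spearman correlation of gene model length with mean FPKM was -0.71, against 0.13 across the 17288 genes tested; this is a description across genes, which share libraries and scaling. The models ran from 366 bases (RPL38) to 4875 bases (RPS24). In reads, which are not divided by length, the highest member had 13.7 times the mean of the lowest. The order of members by FPKM is therefore an order of the reads per base of these models, and the true lengths of the mRNAs were not measured.

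Some entries do not map cleanly to a single ribosomal protein. The entry named RPL37A (chr7:23330690-23372262, 3480 bases) carries helicase domains in the table's own annotation rather than a ribosomal domain, so its reads may come from more than 1 gene. RPL26 (chr13:9861486-9871095) at 62.2 has a neighbour on the same chromosome, its near copy RPL26L1, at 693. RPL36AL, a near copy of the unmatched RPL36A, had 526, and RPL22L1 and RPL7L1 had 94.3 and 103 beside 314 for RPL22 and 542 for RPL7. RPL3L, the paralog that skeletal and heart muscle use in place of RPL3 in mice and humans, had at most 9 reads in any bird, against a mean FPKM of 253 for RPL3. The entry named RPS26 had at most 3 reads in a bird. Whether reads of this mRNA were counted elsewhere or lost was not tested, so the entry is no measure of its level. How reads were divided between near copies is not given in the sources used here.

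Of the 61 members, 31 overlap another entry of the table, most often a small RNA entry inside the span of the host; introns of ribosomal protein genes are known hosts of small nucleolar RNAs. RPL12 (chr17:1924726-1946331) spans several other entries, of which the most abundant was DPH7 at 16.6 against 424 for RPL12. RPLP0 (chr15:9721482-9724691) overlaps PXN at 20.7 against 677. The overlapping entries were thus at most a small share of the member's level, apart from NDUFB10 at 119 on the other strand beside RPS2 at 857.

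The main variation of these mRNAs ran between birds of the same group, and it was shared by nearly the whole family. After each group's mean was taken away, the 1830 pairs of members had a median correlation of 0.80 over the 24 birds, and 89.0% of pairs were above 0.5. A single axis carried 74.3% of the within-group variance of the 61 members. The first axis of all genes tested carried 13.5%, but that set also holds genes at low levels, unlike the members. Neither such a share nor a median correlation is given for other genes as abundant as the members. Whether variation shared to this degree is particular to the family was therefore not tested. RPL14 with RPS7 (0.98), RPL13 with RPS15 (0.98) and RPL13 with RPS3 (0.97) were the most alike pairs, and each joins the 2 subunits. These correlations are descriptions, since values of a bird share its library and its scaling.

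The level of the whole family in a bird was expressed as the mean over members of log2(FPKM + 0.1), each member centred over the 24 birds. It ran from -0.28 in SPH replicate 5 to 0.30 in SP replicate 6. In CTL birds the lowest, median and highest were -0.20, -0.032 and 0.16. In SP birds they were -0.24, 0.090 and 0.30. The SP birds therefore held the highest bird of all and also the second lowest. In SPH birds they were -0.28, -0.020 and 0.23, and in SPM birds -0.15, -0.050 and 0.19. All 4 groups overlapped over most of their range. The pooled SD within groups was 0.163 on this log2 scale, larger than any difference between the group means (means of -0.030 for CTL, 0.061 for SP birds, -0.035 for SPH and 0.0038 for SPM birds).

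**Figure D2:**
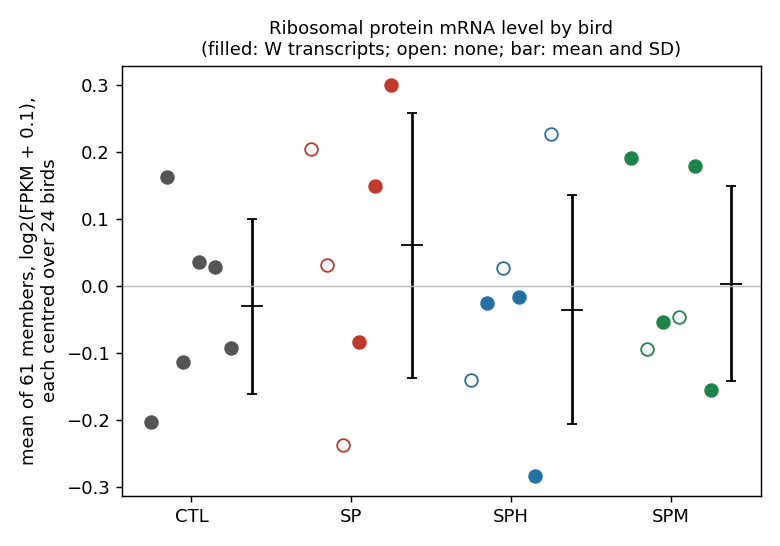
Mean log2 level of the 61 members in each bird, centred over 24 birds, by group, with filled points for birds with W transcripts, open points for the others, and a bar for the mean and SD of 6 birds. Birds of every group lie on both sides of 0, from -0.28 (an SPH bird) to 0.30 (an SP bird).

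The family level varied little with depth. Centred within groups, its Pearson correlation with the total of reads was -0.062 and with the authors' scaling (their implied depth over the total of reads) 0.070, over 24 birds. Spearman's rho was -0.078 and 0.043, and without the 2 birds farthest from the median r was -0.011 and 0.11.

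Individual members were also steady. The median SD of log2 values within groups was 0.185 for members, 0.220 for the 1728 other genes that averaged 50 FPKM or more, and 0.302 for all genes tested. In 60 of the 61 members the highest of the 24 birds was less than 2 times the lowest. The steadiest were RPL21 with an SD of 0.144, RPLP2 with 0.149 and RPS13 with 0.150. The exception was RPS28 (chr28:981982-983363), a small subunit protein, with an SD of 0.342. Its FPKM ran from 110 in a CTL bird to 288 in an SP bird, a 2.62-fold range. RPLP0 with 0.247 and RPL38, which mouse embryos need for the translation of Hox mRNAs, with 0.244 came next.

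A few members stood outside the shared pattern. Their mean correlation with the other members was 0.36 for RPL26, 0.39 for RPS27L, 0.40 for RPS28 and 0.47 for RPL38. The entry named RPL37A (0.60) and RPS19 (0.61) came next, and the other members were higher. RPS27L and RPS28 formed the one pair of members with a correlation below 0, at -0.069.

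**Figure D3:**
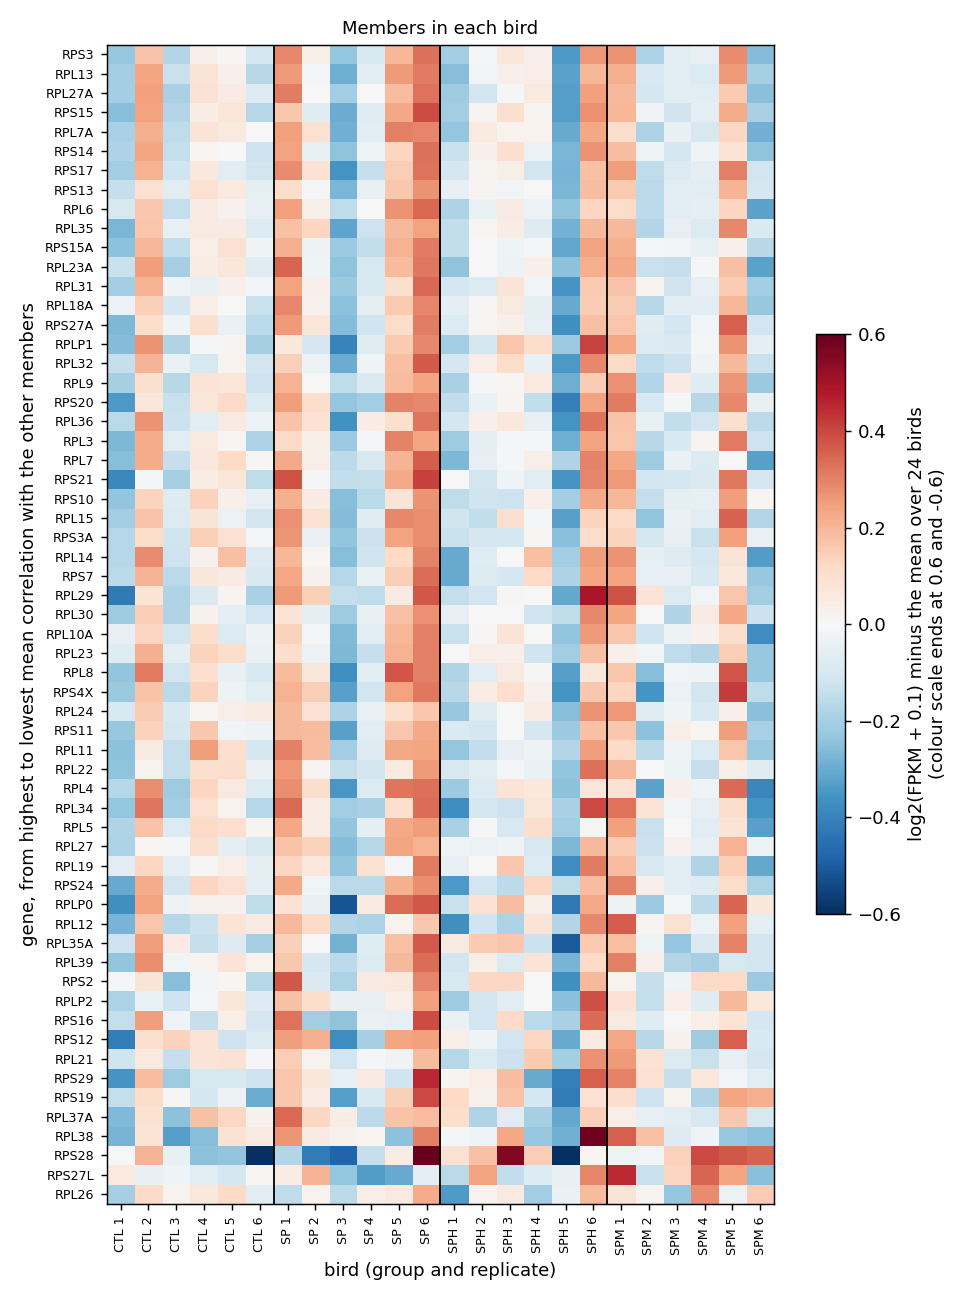
Level of 60 of the 61 members (rows, from the highest to the lowest mean correlation with the others) in each bird (columns, by group), as log2(FPKM + 0.1) minus the mean over 24 birds. Columns are of nearly one colour from top to bottom, and RPS28, RPS27L and RPL26 at the foot depart from it.

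Genes outside the rule that varied most like the family were mainly other parts of the translation machinery. By correlation with the mean of the members over 24 birds, centred within groups, the nearest of all genes tested included RPL26L1 (0.98), URM1 (0.93), TPT1 (0.88) and RPL36AL (0.86). TPT1 is the TOP mRNA of TCTP, and URM1 is a ubiquitin-like protein with a role in tRNA modification. As lists, the 19 tested genes of other TOP mRNAs followed the family with r = 0.86 (rho 0.88, r without the 2 birds 0.83) and the 7 elongation factors with 0.83 (0.87 and 0.81). The 35 initiation factors had 0.71 (0.71 and 0.65), the 69 mitochondrial ribosomal proteins 0.55 (0.46 and 0.45), and the 44 ribosome biogenesis genes 0.18 (0.19 and 0.24). The 13 regulators of these mRNAs went the other way, at -0.44 (-0.37 and -0.37). The TOP list holds members of the elongation factor list, so these are not separate lines of evidence.

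Markers of several cell types moved with the family in part. The same correlation was 0.57 for the 9 T cell genes (rho 0.64, r without the 2 birds 0.60) and 0.58 for the 7 B cell genes (0.65 and 0.68). It was 0.48 for the 4 goblet cell genes (0.47 and 0.56), 0.37 for the 8 macrophage genes (0.27 and 0.20), 0.37 for the 4 red blood cell genes (0.41 and 0.41), 0.31 for the 4 plasma cell genes (0.26 and 0.29) and 0.28 for the 12 proliferation genes (0.23 and 0.33). The 10 enterocyte genes had -0.049 (-0.030 and -0.023) and the 11 smooth muscle genes -0.051 (-0.083 and -0.23). Fewer cells of a type and less RNA per cell cannot be told apart in whole tissue, and the part of these cell types in the family level was not tested.

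The comparison of SP with CTL covers the challenge together with the place of rearing. Members were slightly higher in SP birds: 58 of 61 lay above CTL, and the log2 fold changes had a median of 0.093, against a median of -0.0046 over all 17288 genes, of which 48.8% were higher. The count of 58 is in effect close to a single observation, since the members vary together. The 38 large subunit members had a median of 0.091 and the 23 small subunit members 0.098. No member was called by limma at an adjusted p under 0.05 with a log2 fold change beyond 0.5 either way. Limma called 0% of all genes in this contrast and in each of the other 5. With another test, DESeq2, the authors reported differentially expressed genes in SP vs CTL, SPH vs SP and SPM vs SP. That test was not run here. At an unadjusted p under 0.05 limma found 0 members higher and 0 lower, where 2.87% of all genes were higher and 3.31% lower, and limma-voom on the recovered reads also found 0 and 0.

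The data bound the size of the difference between SP and CTL birds, in which challenge and place of rearing cannot be told apart. For all 61 members the 95% interval of the log2 fold change lay within -0.5 to 0.5, as it did for 49.1% of all genes. The widest reach was 0.48 for RPL29. Without SP replicate 6 the median of the members was 0.044, and without SP replicate 3 it was 0.155. All 6 CTL birds but 3 of 6 SP birds carried W transcripts. Among birds with them the median was 0.149, with 60 of 61 members higher. The share of all genes is not given for that subset. After quantile normalisation of all birds the median was 0.042.

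RPS21 had the smallest p of the members that were higher in SP. Its FPKM was 38.3, 47.4 and 52.6 in CTL birds (lowest, median, highest) and 45.2, 54.2 and 66.6 in SP birds. The groups overlapped. The log2 fold change was 0.23 (SE 0.118, limma adjusted p = 0.767, two-sided exact permutation p = 0.102).

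RPL29 and RPS29 came next. RPL29, a large subunit protein, had means of 274 ± 33.3 in CTL and 319 ± 46.7 in SP (SD, n = 6 each; log2 fold change 0.22, limma adjusted p = 0.773, exact permutation p = 0.0779). RPS29 had means of 464 ± 59.0 and 538 ± 79.2 (SD, n = 6 each; log2 fold change 0.21, limma adjusted p = 0.774, exact permutation p = 0.0801). In both genes the highest bird was SP replicate 6 among these groups, the bird with the highest family level.

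Within the stalk, RPLP2 was above the CTL median of 252 in 6 of 6 SP birds, at 253, 276 and 311, while CTL birds ran from 230 to 275. Its two-sided exact permutation p of 0.0498 was the lowest of the 61 members, with no correction for their number, and its limma adjusted p was 0.797 at a log2 fold change of 0.14. RPLP0 and RPLP1 did not separate the groups either. RPLP1 had means of 1410 ± 198 in CTL and 1466 ± 235 in SP, and RPLP0 had 655 ± 90.8 and 704 ± 145 (SD, n = 6 each). The 3 members that were lower in SP were RPS27L at -0.085, RPL23 at -0.019 and RPL26 at -0.0058 on the log2 scale, with limma adjusted p of 0.905, 0.984 and 0.998.

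T cell markers were also higher in SP birds. Of 9 T cell genes, 8 were higher in SP at an unadjusted limma p under 0.05, at a median log2 fold change of 0.49 and with summed FPKM of 181 to 375 in CTL and 276 to 402 in SP birds. None was called after adjustment. B cell genes had a median of 1.54 with 2 of 7 past the unadjusted limit. Their summed FPKM was 37.9 to 105 in CTL (median 48.2) and 46.1 to 122 in SP birds (median 65.75). Most of them were at a low level, with CXCR5 at a mean FPKM of 2.49 and TNFRSF13C at 0 in some birds. All 11 smooth muscle genes had a negative log2 fold change, with a median of -0.32, and 5 of them passed the unadjusted limit. Their part in the small difference of the ribosomal protein mRNAs was not tested.

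The 2 supplements were compared with SP, and these contrasts share the SP birds with each other and with SP vs CTL. In SPH birds 58 of 61 members lay below SP, where 48.3% of all genes were lower. In every contrast such a count is close to a single observation, since the members vary together. The median log2 fold change of the members was -0.103, against 0.0075 over all genes. The median was -0.10 in each subunit. No member was called by limma. At an unadjusted p under 0.05 there was 1 member lower, the entry named RPL37A, and 0 higher, where 5.62% of all genes were lower and 3.21% higher. Limma-voom found 0 members lower and 0 higher.

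T cell and B cell genes were lower in SPH than in SP birds as well. At an unadjusted limma p under 0.05, 9 of 9 T cell genes were lower (median log2 fold change -0.54, summed FPKM 192 to 311 in SPH and 276 to 402 in SP birds) and 5 of 7 B cell genes (median -2.98, summed FPKM 39.7 to 55.3 and 46.1 to 122). Most of these B cell genes were at a low level, with CXCR5 at a mean FPKM of 2.49 and TNFRSF13C at 0 in some birds of both groups. The median sum of the B cell list was 44.1 FPKM in SPH and 65.75 in SP birds. None of the T cell and B cell genes was called after adjustment, and their part in the shift of the ribosomal protein mRNAs was not tested.

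The entry named RPL37A had FPKM of 80.7, 99.5 and 114 in SP birds (lowest, median, highest) and 72.5, 82.7 and 99.3 in SPH birds. All 6 SPH birds were below the SP median, but the ranges overlapped. The log2 fold change was -0.20 (SE 0.095, 95% interval -0.398 to -0.0054, limma adjusted p = 0.554, exact permutation p = 0.0758).

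RPL6 and RPL11 had the next smallest p. RPL6 (chr15:6679247-6682601), a large subunit protein, had means of 617 ± 80.8 in SP and 544 ± 51.9 in SPH (SD, n = 6 each; log2 fold change -0.18, limma adjusted p = 0.650, exact permutation p = 0.0996). RPL11 binds MDM2 together with RPL5 and 5S RNA when ribosome assembly fails, and so stabilises p53 in human cells. It had means of 286 ± 38.7 in SP and 253 ± 32.01 in SPH (SD, n = 6 each; log2 fold change -0.18, limma adjusted p = 0.681, exact permutation p = 0.158).

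The 3 members that were not lower in SPH were RPS28 at 0.14, RPS27L at 0.13 and RPLP1 at 0.036 on the log2 scale, with limma adjusted p of 0.892, 0.806 and 0.9752. For 60 of 61 members the 95% interval lay within -0.5 to 0.5, as it did for 49.1% of all genes. RPS28 was the exception among members, with an upper end of 0.53.

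The shift between SPH and SP was larger in birds with W transcripts than in those without. This difference was tested for single members only, not for the family median, and none passed after adjustment. With 3 birds in each part, that does not show that the 2 effects were equal. In birds with W transcripts, 3 in each group, the median of the members was -0.236. In birds without, also 3 in each group, it was 0.019. The difference of the 2 effects was tested for each gene as an interaction. Limma found 0 of 61 members at an adjusted p under 0.05, with a smallest value of 0.30. At an unadjusted p under 0.05 it found 4. The share of all genes at that limit is not given for this test, so the count is no result about the members. For SPM vs SP the same interaction gave 0 of 61 members at that limit. The effect of W status itself, fitted beside the group means, also gave 0 of 61. The median of SPH vs SP without SPH replicate 5, the bird with the lowest family level, was -0.050, and without SP replicate 3 it was -0.161.

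In SPM birds 55 of 61 members lay below SP, where 48.0% of all genes were lower. The median of the members was -0.062, against 0.014 over all genes. Limma called 0 members. At an unadjusted p under 0.05 there was 1 member higher, RPS27L, and 0 lower, where 6.67% of all genes were higher and 8.73% lower, and limma-voom gave the counts 1 and 0. Without SP replicate 6 the median was -0.018, and without SP replicate 3 it was -0.124.

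The lymphocyte lists were lower here too. At the unadjusted limit 9 of 9 T cell genes were lower in SPM than in SP (median -0.64, summed FPKM 161 to 294 in SPM birds) and 6 of 7 B cell genes (median -3.01, summed FPKM 37.2 to 48.0). The median sum of the B cell list, most of whose genes were at a low level, was 46.1 FPKM in SPM and 65.75 in SP birds. None of these T cell and B cell genes was called by limma after adjustment, and their part in the family's shift was not tested.

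RPS27L (chr10:4594910-4600543) went the other way from the family. Its FPKM was 142, 162 and 206 in SP birds (lowest, median, highest) and 150.5, 203 and 245 in SPM birds. In CTL birds it was 167, 175 and 187, and in SPH birds 160.4, 171 and 219. Its CTL birds lay close together and its SPM birds far apart, and all the groups overlapped. SPM against SP gave a log2 fold change of 0.24 (SE 0.116, 95% interval 0.0044 to 0.483, limma adjusted p = 0.318, exact permutation p = 0.113), with 5 of 6 SPM birds above the SP median.

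RPS28 had the highest log2 fold change of any member in both SPM vs SP and SPM vs CTL. It was the highest member in SPH vs SP (0.14) and SPH vs CTL (0.23) as well. RPS28 also had the largest spread of log2 values. Its FPKM was 110.04, 164 and 208 in CTL birds, 129 to 288 in SP birds with a median of 162, 114 to 265 in SPH birds with a median of 196.5, and 178, 215 and 238 in SPM birds. The SPM birds were the most closely grouped, and the groups overlapped. SPM against SP gave a log2 fold change of 0.29 (SE 0.188, limma adjusted p = 0.485, exact permutation p = 0.160). SPM against CTL gave 0.38 (95% interval -0.011 to 0.767, limma adjusted p = 0.931), with 6 of 6 SPM birds above the CTL median and a two-sided exact permutation p of 0.0303 that is uncorrected for the 61 members.

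Among members that were lower in SPM than in SP, RPL6 had means of 617 ± 80.8 in SP and 542 ± 62.4 in SPM (SD, n = 6 each; log2 fold change -0.18, limma adjusted p = 0.386, exact permutation p = 0.108). RPL7, another large subunit protein, had means of 580.0 ± 81.2 and 515 ± 69.2 (SD, n = 6 each; log2 fold change -0.17, limma adjusted p = 0.509, exact permutation p = 0.169). All 6 SPM birds were below the SP median for RPL6, and 5 of 6 for RPL7.

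**Figure D4:**
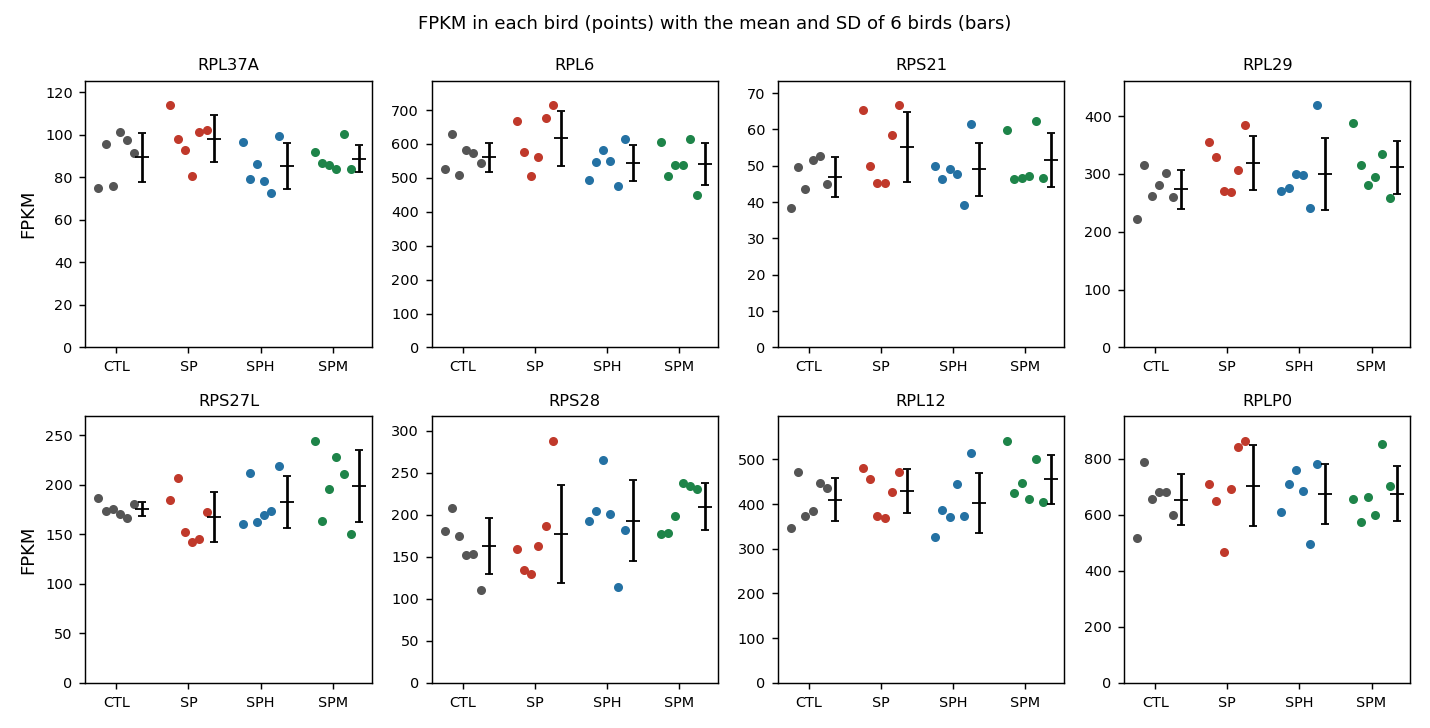
FPKM of 8 members in each bird, by group, with the mean and SD of 6 birds. The groups overlap for every gene shown. RPS28 has the widest range as a fold (2.62-fold, from 110.04 to 288), and RPS27L has its highest values among SPM birds (up to 245).

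The direct comparison of the isomers at the same dose of 300 mg/kg, SPM with SPH, showed little for these genes. The median log2 fold change of members was 0.039, against 0.0047 over all genes. In SPM 48 of 61 members were higher, where 51.2% of all genes were higher. Limma called 0 members, and at an unadjusted p under 0.05 it found 0 higher and 0 lower, where 2.24% of all genes were higher and 2.33% lower. Limma-voom found 0 and 0. The intervals bound the difference between honokiol and magnolol gene by gene, with no correction for the number of members. For 60 of 61 members the 95% interval lay within -0.5 to 0.5, with RPS28 reaching 0.54. The same held for 50.9% of all genes.

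RPL12, which forms the base of the stalk and the GTPase-associated centre, had the smallest p of this comparison. Its FPKM was 326, 380 and 514 in SPH birds (lowest, median, highest) and 405, 437 and 542 in SPM birds. All 6 SPM birds were above the SPH median, while the ranges overlapped. The log2 fold change was 0.19 (SE 0.112, 95% interval -0.046 to 0.417, limma adjusted p = 0.996, exact permutation p = 0.136). RPS20 (0.13) and RPL26 (0.098) were next among higher members, and RPL23 (-0.052), RPL19 (-0.049) and RPL7 (-0.044) had the smallest p among lower ones, each with a limma adjusted p of 0.996.

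The sign of the family median between the isomers depended on which birds were compared. It was 0.146, with 61 of 61 members higher in SPM, in birds with W transcripts (3 SPH and 4 SPM), and -0.112, with 5 of 61 higher, in birds without (3 and 2). It was also -0.013 without SPH replicate 5 and 0.090 without SPH replicate 6. The counts of members in these subsets are close to single observations, since the members vary together. The shares of all genes are not given for the subsets.

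Against CTL, whose birds also enter SP vs CTL, both supplemented groups were close to even. SPH vs CTL had a median of -0.019 with 21 of 61 members higher, and SPM vs CTL a median of 0.021 with 42 higher. Over all genes the medians were -0.0073 and -0.0047, and 47.7% and 48.8% of all genes were higher. Limma called 0 members in each, and at an unadjusted p under 0.05 both limma and limma-voom found 0 higher and 0 lower in each. The shares of all genes at that limit were 1.84% higher and 1.8% lower in SPH vs CTL, and 2.46% and 2.62% in SPM vs CTL. The median of SPM vs CTL was below 0 when every bird was scaled to the same sum of FPKM (-0.049) or quantile normalised (-0.068). In SPH vs CTL the smallest p fell on RPS28 (0.23), RPL38 (0.15) and RPL29 (0.12) among higher members and on RPL5 (-0.090), RPS3A (-0.086) and RPL37A (-0.068) among lower ones, each with a limma adjusted p of 1. In SPM vs CTL, RPL29 (0.19) and RPS27L (0.16) followed RPS28, each with a limma adjusted p of 0.931, and RPL23 (-0.11), RPL7 (-0.075) and RPL39 (-0.065) were the first of the lower members with 0.936, 0.961 and 0.965.

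**Figure D5:**
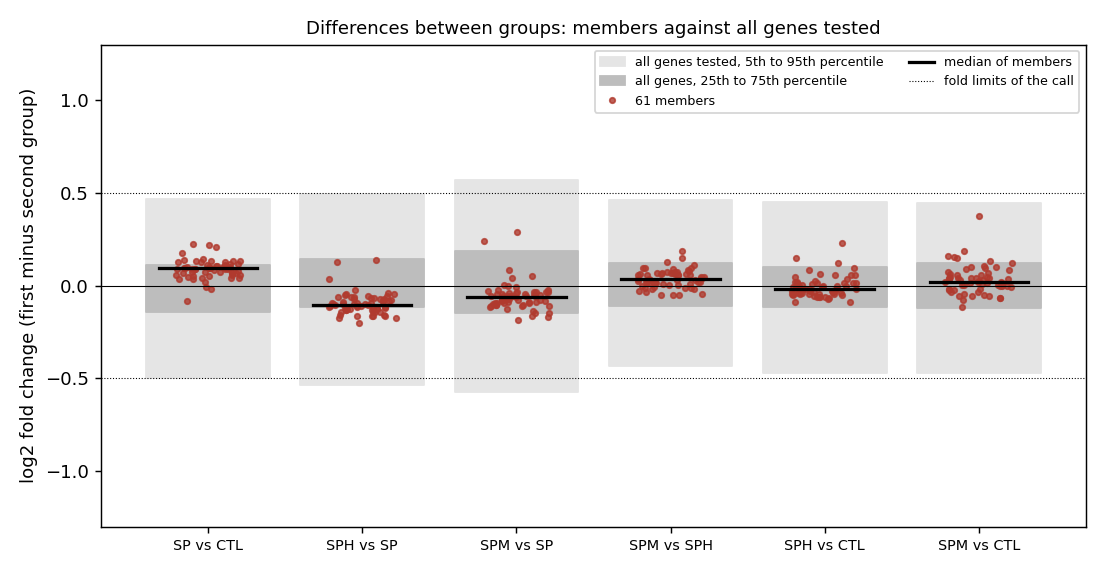
Log2 fold changes of the 61 members (points, with their median as a line) in the 6 contrasts, over bands that hold the middle 50% and 90% of all 17288 genes. Members lie in a narrow strip within the fold limits of 0.5 either way, with medians from -0.103 (SPH vs SP) to 0.093 (SP vs CTL); RPS28 is the highest point of SPM vs CTL at 0.38.

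Members of other roles also differed between groups by small margins. RPL5 and RPL11 carry 5S RNA into the large subunit. RPL5 had a mean FPKM of 642 ± 57.8 (CTL), 668 ± 88.0 (SP), 603 ± 51.5 (SPH) and 619 ± 83.2 (SPM; SD, n = 6 each), and SP birds were highest in both genes, within the spread of the other groups. RPL39, which lines the peptide tunnel, had 551 ± 63.2, 566 ± 78.9, 527 ± 52.6 and 528 ± 73.2 in that order. RPS24, a small subunit protein whose loss causes Diamond-Blackfan anaemia in humans, had 126 ± 16.3, 133 ± 18.3, 120.2 ± 16.6 and 128 ± 15.7. For each of these genes the means differed by less than the largest SD of a group.

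Related lists were set beside the members without a test of the list. Of all genes, 2.87% were higher and 3.31% lower in SP vs CTL at an unadjusted limma p under 0.05. The shares in SPH vs SP were 3.21% and 5.62%. In SP vs CTL the medians were 0.070 for the 69 mitochondrial ribosomal proteins (9 higher and 0 lower at an unadjusted limma p under 0.05), 0.056 for the 44 ribosome biogenesis genes (4 and 0), 0.051 for the 35 initiation factors (0 and 0) and 0.036 for the 19 other TOP mRNAs (0 and 0). In SPH vs SP they were -0.012 (1 and 2), -0.091 (0 and 8), -0.097 (0 and 5) and -0.119 (0 and 2) in the same order.

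In SPM vs SP the biogenesis genes, which process ribosomal RNA and assemble the subunits in the nucleolus, stood lower than the ribosomal proteins themselves. Their median was -0.19, with 22 of 44 lower and 0 higher at an unadjusted limma p under 0.05, where the members had 0 lower. The 35 initiation factors had a median of -0.13 (0 higher, 12 lower) and the 69 mitochondrial ribosomal proteins -0.072 (0 and 11). Of all genes, 6.67% were higher and 8.73% lower at that limit. In SPM vs SPH the biogenesis genes had a median of -0.11 with 3 lower and 1 higher, while the members were at 0.039. There 2.33% of all genes were lower and 2.24% higher. No gene of these lists was called after adjustment, and the difference between the lists was not tested. All 12 proliferation genes were lower in SPM than in SP at that unadjusted limit, with a median of -0.61. Their summed FPKM was 161 to 258 in SPM and 216 to 370.1 in SP birds. In SPM vs SPH 9 of these 12 were lower at that limit, with a median of -0.42. The part of the proliferation genes in the biogenesis values was not tested.

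Regulators of these mRNAs, 13 tested genes that include LARP1 at a mean FPKM of 37.6, EIF4EBP1 at 127 and RHEB at 86.4, had medians near 0. SP vs CTL gave -0.0085, SPH vs SP gave 0.0048 and SPM vs SP gave -0.037. At most 2 of them passed the unadjusted limit in any contrast.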

How the data were processed

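The authors sequenced ileum RNA and deposited FPKM values, with gene length and position, for 25339 genes in 24 birds. The submitters' processing notes list Bowtie 0.12.2 and the builds GRCg6a and mm8; no source names the counting program or how multiply mapped reads were divided. FPKM times length was a whole multiple of 1 step per bird in 439317 of 439317 values checked (tolerance 0.001 reads), so reads could be recovered. Genes averaging 0.1 FPKM or more (17288) were fitted with limma 3.58.1 (R 4.3.3, intensity trend) on log2(FPKM + 0.1) over all birds, with Benjamini-Hochberg adjustment within each contrast. Fold changes are on that scale. Single members had two-sided exact permutation tests, whose smallest possible p is 0.00216. Birds with over 100 summed FPKM of W genes were taken as carrying W transcripts. Fits were tested on simulated data.

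The members and gene lists were chosen with earlier results of these data known. Named members were the 5 highest and 5 lowest, the 3 smallest p per direction and contrast, the 3 steadiest and 3 most variable, and the stalk proteins; other members named for overlaps, near copies or correlations were picked after their values were seen. Some genes that the rule names are not reported here. The labels give no cage, litter or batch for the replicate numbers, so p values measure the spread between these birds.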

Additional observations from a re-analysis of the deposited data

How the results depend on the processing

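Every alternative kept 0 members called by limma in each contrast for which it was run. They covered pseudocounts of 0.01 and 1, all genes or those averaging 1 FPKM or more, fits of just the 2 groups, an equal sum of FPKM, quantile normalization, removal of a length trend, array weights, limma-voom, W transcripts as a covariate, only birds with W transcripts, and each bird left out. Added after seeing the data were only birds without W transcripts and scaling to the mean of the members. Birds without W transcripts gave no contrast with CTL, and each bird left out entered only the contrasts of its own group. The main fit called 0% of all genes in every contrast, so a count of 0 is nothing particular to the members. Same-numbered birds did not deviate together (mean correlation -0.031, 1 of 36 pairs above 0.1). With the replicate block 0 members were called. Every group holds each replicate number once, so the block could change p values but not the fold changes. The medians of 0.093 (SP vs CTL), -0.103 (SPH vs SP) and -0.062 (SPM vs SP) were therefore fixed in advance. With the replicate block, RPL37A in SPH vs SP and RPS27L in SPM vs SP no longer passed the unadjusted limit.

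Medians of the members moved by less than the SD between birds (0.163) in every alternative, but several changed sign. SPH vs SP was 0.019 in birds without W transcripts. With 1 bird left out they ran from 0.044 to 0.155 (SP vs CTL), -0.161 to -0.050 (SPH vs SP), -0.124 to -0.018 (SPM vs SP), -0.013 to 0.090 (SPM vs SPH), -0.072 to 0.031 (SPH vs CTL) and -0.015 to 0.066 (SPM vs CTL). With quantile normalization SP vs CTL fell to 0.042. With array weights 4 members were lower in SPH vs SP at an unadjusted p under 0.05. The share of all genes is not given for that fit, so this count cannot be read against it. In the main fit the share was 5.62%. The cause of these shifts was not tested.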

Other observations

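Ribosomal protein genes on Z were left out by the rule. RPS6, the small subunit protein that S6 kinase phosphorylates, had a mean FPKM of 706 ± 58.0 in CTL and 1034 ± 323 in SP birds, and RPS23 had 597 ± 64.9 and 893 ± 264 (SD, n = 6 each). In SPH and SPM birds RPS6 had 990 ± 342 and 869 ± 270, and RPS23 had 855 ± 354 and 758 ± 228. All 6 CTL birds carried W transcripts, but only 3 SP, 3 SPH and 4 SPM birds did. These means of genes on Z therefore mix group and W status. Every group held birds with W transcripts, but a comparison among those birds alone is not given here for these genes. FAU, whose product is a ubiquitin-like protein fused to S30, was the most abundant ribosomal gene of the table at a mean FPKM of 2283, and RPSAP58 had 788. Dixon's limit was applied to log2 values, in 120 sets of 6 birds. On that scale no group of any named member, and no group of the family level, held a bird far enough from the other 5 to pass it. This does not hold for all sets in FPKM, where the highest SP bird of RPS28 (288) stood farther from the others.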
